A study of Mus musculus with 12 samples.

Results

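The proteasome subunits were the 39 genes named Psma, Psmb, Psmc or Psmd plus a number on the array, of 31276 genes measured with 1 symbol. They were chosen by symbol alone, but the proteasome was taken up with results of these arrays known, in which Psmb2 had one of the smallest p-values in the colon. The arrays measured RNA from laser-microdissected mucosa of male C57BL6/J littermates aged 4 to 6 weeks, none of them treated. There were 4 groups of 3 arrays, namely FSPCre-PPARB -/- ileum, PPARB flox/flox ileum, FSPCre-PPARB -/- colon and PPARB flox/flox colon, called KO and floxed here. FSP is fibroblast-specific protein, the product of S100a4, whose promoter drives Cre in the KO mice, so deletion of Ppard (PPARB) is aimed at cells that use that promoter. The floxed mice carry the floxed alleles without Cre, and no group had unmodified Ppard alleles. One label field calls the tissue sectioned tumors, while the others call it ileum or colon mucosa. The labels do not say that the 3 arrays of a group came from 3 animals, so p-values measure the spread between these arrays only.

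The proteasome is the protease that degrades proteins tagged with ubiquitin. Its barrel-shaped core has outer rings of alpha subunits, which gate the entry, and inner rings of beta subunits, some of which hold the active sites. The regulatory particle that caps the barrel has a base, with ATPases that unfold the substrate, and a lid, which removes the ubiquitin. Under interferon gamma, and constantly in many immune cells, the catalytic subunits encoded by Psmb8, Psmb9 and Psmb10 are built in place of those encoded by Psmb5, Psmb6 and Psmb7. The resulting immunoproteasome favours peptides that fit MHC class I molecules. When proteasome activity falls, cells raise most subunit genes together through the transcription factor NRF1 (Nfe2l1), which binds antioxidant response elements in their promoters.

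Promoter sequence is shown for catalytic subunits because the constitutive and immunoproteasome genes are known to answer to different factors. RefSeq windows of GRCm38.p6 from 250 bases before to 50 bases after a start site were at hand for 32 of the 39 subunit genes, as 34 windows of 32851 in all. In 26 of the 34 that site is the outer start of the RefSeq gene and in 8 it lies inside it, as in Psmb6, by 33 bases. The Psmb5 window spans chr14:54617946-54618245 on the minus strand and that of Psmb6 chr11:70525107-70525406 on the plus strand, and capitals mark the antioxidant response element core TGACNNNGC. The Psmb8 window spans chr17:34197945-34198244 on the plus strand, with the gamma-activated site core TTCNNNGAA in capitals. That of Psmb9 spans chr17:34187281-34187580 on the minus strand, with a CCAAT box read on the other strand in capitals.
Psmb5: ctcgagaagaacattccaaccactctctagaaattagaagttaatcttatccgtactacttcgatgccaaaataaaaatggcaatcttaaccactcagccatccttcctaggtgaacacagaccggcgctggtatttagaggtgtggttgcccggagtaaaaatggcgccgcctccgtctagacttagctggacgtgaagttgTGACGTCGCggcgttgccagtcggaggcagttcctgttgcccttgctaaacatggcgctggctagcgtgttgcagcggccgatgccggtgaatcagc
Psmb6: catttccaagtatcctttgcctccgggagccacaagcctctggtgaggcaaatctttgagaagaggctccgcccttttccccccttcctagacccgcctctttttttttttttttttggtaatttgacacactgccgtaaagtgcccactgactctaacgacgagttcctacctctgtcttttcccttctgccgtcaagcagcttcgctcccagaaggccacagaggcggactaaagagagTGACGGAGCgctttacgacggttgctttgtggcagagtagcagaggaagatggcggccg
Psmb8: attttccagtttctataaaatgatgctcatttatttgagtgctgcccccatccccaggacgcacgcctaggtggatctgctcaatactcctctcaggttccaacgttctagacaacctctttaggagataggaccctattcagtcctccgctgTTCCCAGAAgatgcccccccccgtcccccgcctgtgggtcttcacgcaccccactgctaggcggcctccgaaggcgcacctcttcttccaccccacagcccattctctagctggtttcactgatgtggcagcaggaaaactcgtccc
Psmb9: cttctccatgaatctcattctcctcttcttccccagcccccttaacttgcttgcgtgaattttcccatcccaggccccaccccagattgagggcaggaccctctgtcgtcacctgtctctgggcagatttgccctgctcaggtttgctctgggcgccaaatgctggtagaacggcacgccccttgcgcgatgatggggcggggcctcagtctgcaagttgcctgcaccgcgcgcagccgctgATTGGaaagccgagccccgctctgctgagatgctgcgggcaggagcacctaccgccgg
Counted from the start site of each window at 0, the first capital letter is at -47 in Psmb5, -9 in Psmb6, -97 in Psmb8 and -8 in Psmb9. The Psmb9 window shares 275 bases with that of Tap1, the peptide transporter gene on the opposite strand. Searched on both strands, TGACNNNGC was in the windows of 5 of the 32 genes (Psmb5, Psmb6, Psmc6, Psmd12 and Psmd9) and in 12.4% of all windows. CCAAT was in those of 13 genes and in 37.4% of all windows. The interferon-stimulated response element core was in those of Psmb3, Psmd4 and Psmd9 and in 3.44% of all windows. TTCNNNGAA was in those of Psmb8 and Psmd2 and in 8.30% of all windows. The Psmb10 window held none of the 4 motifs. These motifs can overlap each other, and a match of letters is not a bound site.

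All values are log2 intensities, and a subunit's value in an array is the median of its rows, where a row is an exon region or an exon junction. The 39 subunits had 994 rows, between 2 (Psmb11) and 67 each. A level of one subunit cannot be set against that of another on such an array, so only differences of the same subunit between groups are given. In 32 subunits the mean over the 12 arrays was above 3.61, the 75th percentile of the negative control rows. Psma4, Psma8, Psmb11, Psmc6, Psmd5, Psmd10 and Psmd14 were at or below it. Each gene was tested with limma, and a gene counted as changed at an adjusted p under 0.05 over all 31276 genes.

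The targeted gene does not mark the KO arrays. Ppard was at 6.95, 6.61 and 6.78 in KO ileum against 6.49, 6.15 and 6.54 in floxed ileum, and at 7.27, 6.96 and 6.42 in KO colon against 6.91, 6.67 and 6.63 in floxed colon. It was thus higher in every KO than in every floxed ileum array (0.39, limma adjusted p = 0.711), and every direction below rests on the labels. S100a4, whose promoter drives Cre, was at 3.88, 4.15 and 2.80 in KO ileum against 2.90, 3.87 and 3.51 in floxed ileum, and at 3.16, 3.57 and 3.57 in KO colon against 3.59, 3.77 and 4.23 in floxed colon. The ileum groups overlapped, every KO colon array was below every floxed colon array, and S100a4 did not pass in ileum (limma adjusted p = 0.897) or in colon (0.844). A deletion limited to some cells, or rows outside the deleted part of the gene, could not be seen here.

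The arrays differed in a technical measure and in tissue markers along with genotype. Array background, the mean over 11 GC-rich background probe sets (at least 15 of 25 bases G or C), was 6.01 to 6.38 in KO ileum against 6.60 to 7.06 in floxed ileum. It was 6.32 to 6.76 in KO colon against 6.60 to 6.97 in floxed colon. Over all 23 background probe sets the median was 2.84, 3.19 and 3.12 in KO ileum against 3.12, 3.77 and 3.22 in floxed ileum. The median of the 5245 negative control rows was 2.46, 2.54 and 2.64 in KO ileum against 2.56, 2.58 and 2.54 in floxed ileum. Both of these medians overlapped between the ileum groups, unlike the GC-rich subset. All 7 epithelial markers had positive KO minus floxed differences in both tissues, with medians of 0.56 in ileum and 0.48 in colon. Their mean level was 8.21 to 8.90 in KO ileum against 7.38 to 8.30 in floxed ileum, and 7.59 to 8.19 in KO colon against 7.22 to 7.91 in floxed colon. All 6 goblet cell, 5 smooth muscle and 6 fibroblast markers were also positive in both tissues, and the 4 measured Paneth cell markers in ileum (median 1.50). The mean level of the Paneth cell markers was 8.04, 5.12 and 5.93 in KO ileum against 5.39, 4.70 and 4.80 in floxed ileum. These groups overlapped, and ileum KO 1 stood far above the rest. Leukocyte markers were positive in 4 of 8 in ileum and 5 of 8 in colon. The mean level of the 5 exocrine pancreas markers was 3.63 to 3.85 in KO ileum against 3.77 to 3.99 in floxed ileum, near the control cutoff. Their differences ran the other way, with 1 of 5 positive in ileum (median -0.10) and 0 of 5 in colon (median -0.16). None of these markers passed its KO minus floxed test, and their part in the results below was not tested. In tissue RNA, fewer cells of a type and less RNA per cell cannot be told apart.

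**Figure D1:**
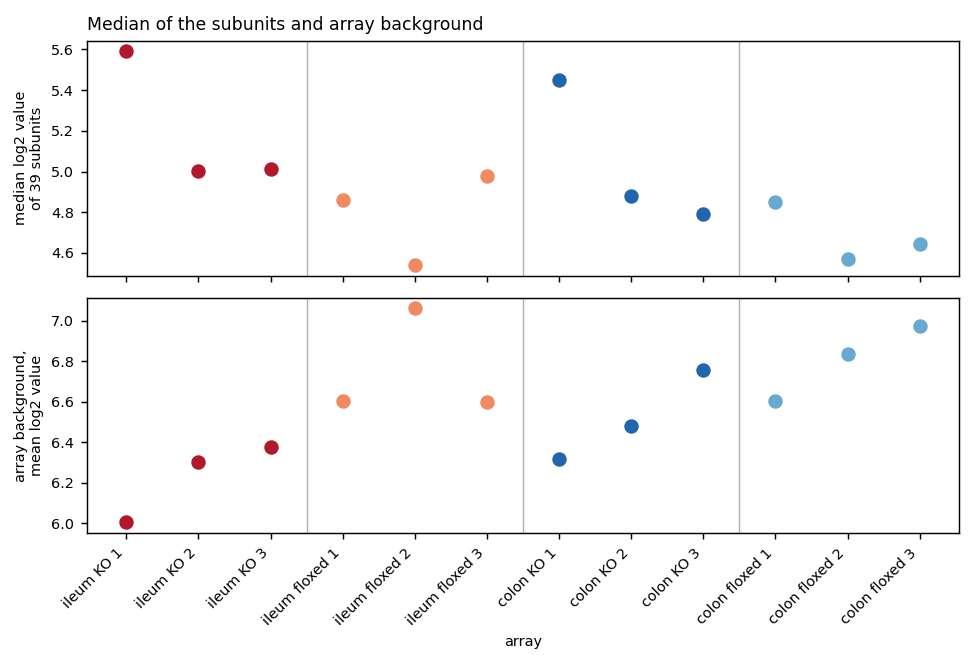
Median log2 value of the 39 subunits (top) and mean log2 array background (bottom) in each of the 12 arrays, by group. Ileum KO 1 has the highest subunit median (5.59) and the lowest background (6.01), and ileum floxed 2 the lowest subunit median (4.54) and the highest background (7.06).

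Subunit RNA had a higher mean in KO than in floxed mucosa for most subunits in both tissues, but no subunit passed the test. In ileum 38 of 39 differences were positive, with a median of 0.39, where the median over all genes was -0.01 and 48.7% of genes were positive. In colon 36 of 39 were positive, with a median of 0.27, against a median of -0.01 over all genes and 49% of genes positive. Among the 16671 genes above the control cutoff 55.0% were positive in ileum (median 0.03) and 61.5% in colon (median 0.07). The median of the 39 subunits was 5.59, 5.004 and 5.010 in KO ileum against 4.86, 4.54 and 4.98 in floxed ileum. It was 5.45, 4.88 and 4.79 in KO colon against 4.85, 4.57 and 4.64 in floxed colon. The groups lay next to each other without overlap in ileum, and overlapped in colon.

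Called were 0 of 39 subunits in KO ileum and 0 of 39 in KO colon, as were 0% of all genes in ileum and 0% in colon. The smallest limma adjusted p of a subunit was 0.711 in ileum and 0.844 in colon. At an unadjusted p under 0.05 stood 7 subunits in ileum, against 6.65% of all genes, and 1 in colon, against 4.78%. Every KO array was above every floxed array for 7 subunits in ileum (Psma2, Psmb1, Psmb3, Psmd2, Psmd6, Psmd10 and Psmd14), against 5.06% of all genes, and for 1 in colon (Psmb2), against 4.04%. Of the 16671 genes above the control cutoff, 1440 in ileum and 838 in colon had an unadjusted p under 0.05. Every KO array was above every floxed array for 1121 of these brighter genes in ileum and 909 in colon. Subunits share the arrays and so are not independent of each other.

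One KO array of each tissue stood above the others. Ileum KO 1 was the highest of the 12 arrays for 27 of the 39 subunits (69.2%), while it was the highest for 14.4% of all genes and 20.6% of those above the control cutoff. Colon KO 1 was the highest for another 7 (17.9%), near its 14.6% of the genes above the cutoff. Ileum floxed 2 was the lowest for 15 subunits (38.5%), against 17.5% of the genes above the cutoff. Colon floxed 2 was the lowest for 9 (23.1%, against 17.6%) and colon floxed 3 for 6 (15.4%, against 6.45%). Without ileum KO 1 the ileum median became 0.17 with 32 of 39 positive, and without colon KO 1 the colon median became 0.08 with 30 of 39 positive. Without ileum floxed 2 the ileum median was 0.27, with 37 positive. With array background as a covariate the medians became -0.23 in ileum, with 8 of 39 positive, and -0.06 in colon, with 15 of 39 positive. In ileum that covariate has no values shared by the KO and floxed arrays.

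**Figure D2:**
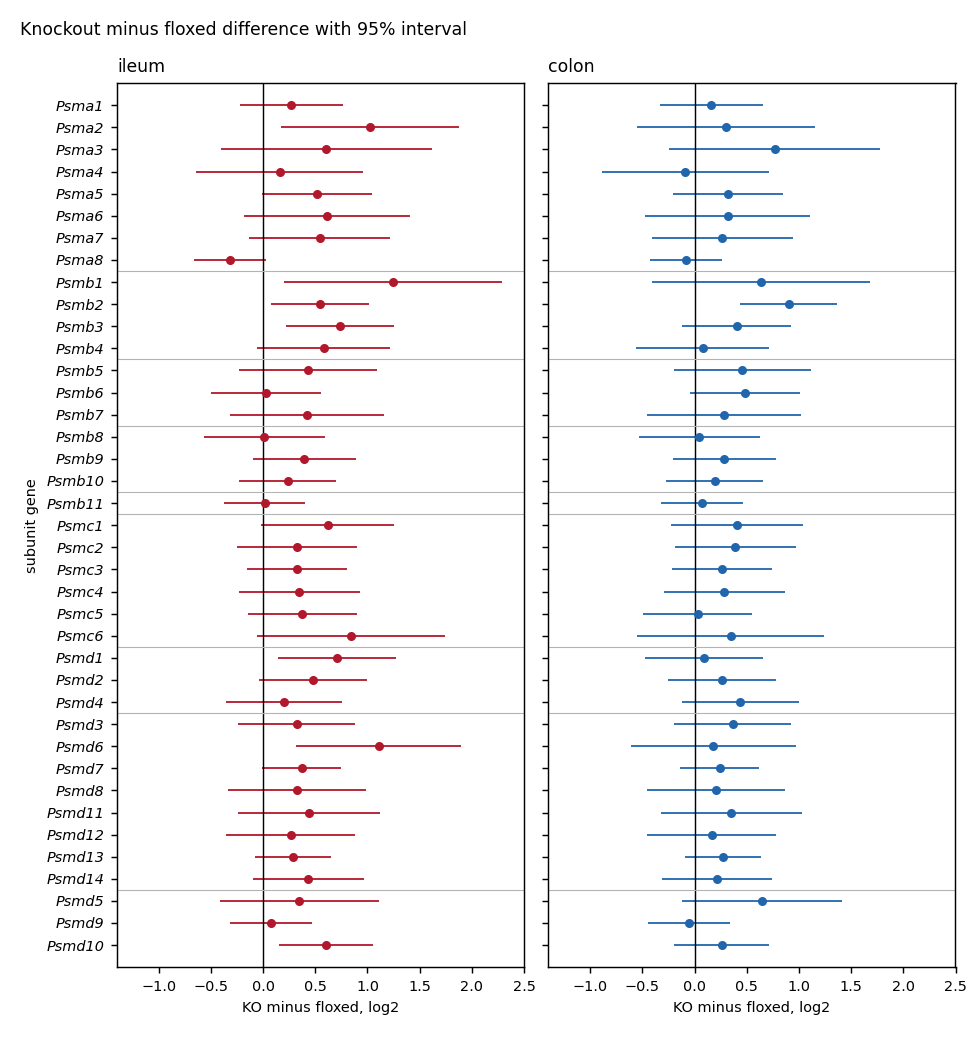
KO minus floxed difference on the log2 scale for each of the 39 subunits in ileum (left) and colon (right), ordered by subunit class, with points for the estimates and bars for the 95% intervals of the limma fit before adjustment. In ileum 38 of 39 points and in colon 36 of 39 lie right of 0, and most bars cross 0.

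**Figure D3:**
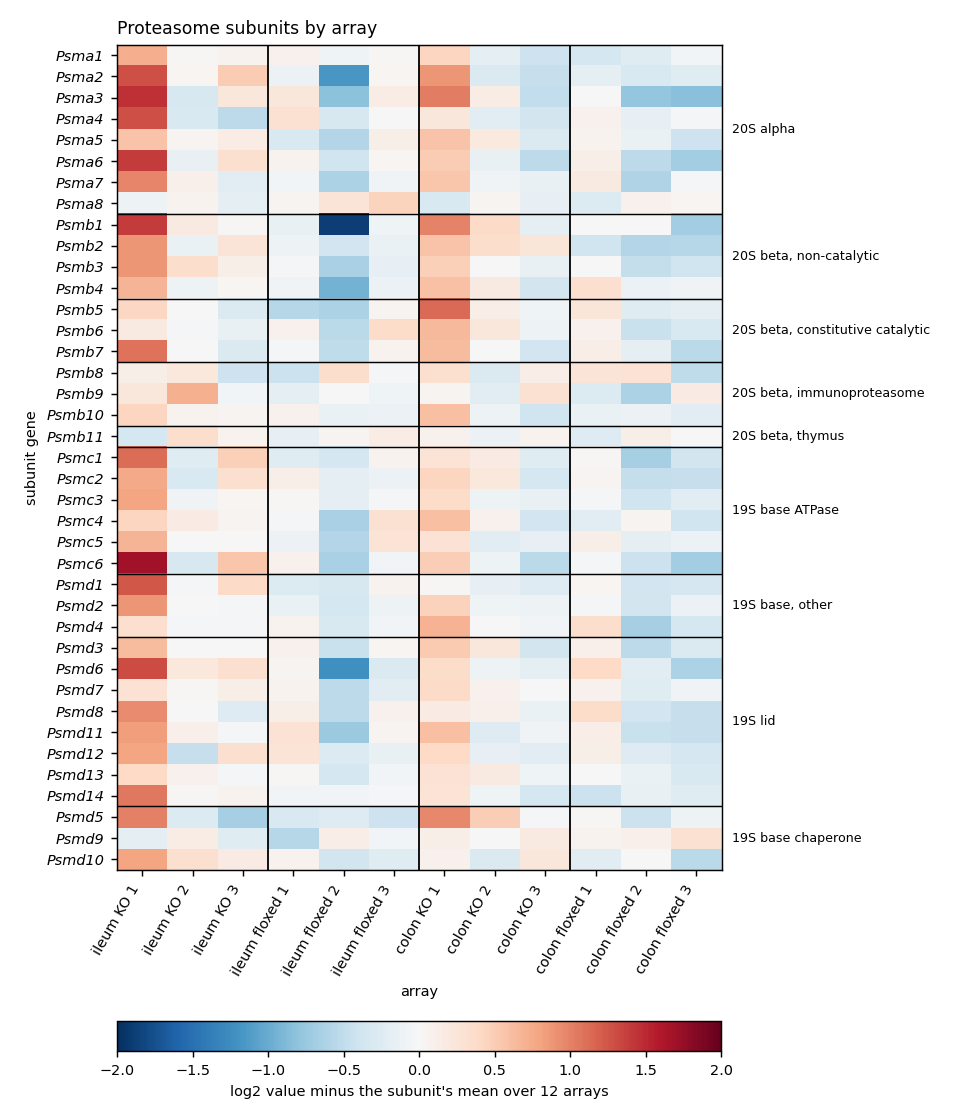
Each subunit's log2 value in each array minus its mean over the 12 arrays, by subunit class (rows) and group (columns). The leftmost column, ileum KO 1, is the highest of the 12 for 27 of 39 subunits, and Psma8, Psmb11 and Psmd9 are among the rows that do not share that pattern.

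The alpha subunits that form the outer rings had positive differences in 7 of 8 genes in ileum (median 0.53) and 6 of 8 in colon (median 0.28). Psma2 was at 5.85, 4.61 and 5.08 in KO ileum against 4.45, 3.41 and 4.61 in floxed ileum. In colon it was at 5.46, 4.28 and 4.11 in KO against 4.37, 4.25 and 4.33 in floxed mucosa. Psma2 thus touched but did not overlap between the ileum groups (1.02, 95% interval 0.17 to 1.88, limma adjusted p = 0.711), and only colon KO 1 stood above the floxed colon arrays. Psma3 was at 5.71, 3.93 and 4.48 in KO ileum against 4.47, 3.42 and 4.40 in floxed ileum, and at 5.26, 4.40 and 3.75 in KO colon against 4.24, 3.47 and 3.41 in floxed colon. Its groups overlapped in both tissues, at 0.61 in ileum and 0.77 in colon (limma adjusted p = 0.844). Psma1, Psma5, Psma6 and Psma7 lay between 0.27 and 0.61 in ileum and between 0.16 and 0.32 in colon.

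Psma4 and Psma8 ended at the low end of the alpha group, and both are dim. Psma4 was at 4.51, 2.91 and 2.71 in KO ileum against 3.52, 2.90 and 3.23 in floxed ileum, and at 3.44, 3.00 and 2.86 in KO colon against 3.31, 3.06 and 3.20 in floxed colon. Its difference was 0.16 in ileum, where only ileum KO 1 was high, and -0.09 in colon. Psma8, known as an alpha subunit of the testis, was at 2.61, 2.79 and 2.54 in KO ileum against 2.76, 2.97 and 3.15 in floxed ileum. In colon it was at 2.41, 2.77 and 2.55 in KO against 2.43, 2.79 and 2.75 in floxed mucosa. It was the one subunit with a negative ileum difference (-0.31, limma adjusted p = 0.711), at values below the control cutoff.

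The beta subunits without an active site, Psmb1 to Psmb4, had medians of 0.66 in ileum and 0.52 in colon, with 4 of 4 positive in each. The colon median includes Psmb2, which was singled out for its colon values, and without it is 0.40, the value of Psmb3. Psmb1 was at 6.91, 5.69 and 5.54 in KO ileum against 5.36, 3.63 and 5.42 in floxed ileum, and at 6.51, 5.89 and 5.34 in KO colon against 5.51, 5.50 and 4.81 in floxed colon. Its ileum difference of 1.25 (95% interval 0.20 to 2.29, limma adjusted p = 0.711) was the largest of the 39. Ileum floxed 2 stood far below the other floxed ileum arrays, and without 1 array at a time the difference ran from 0.66 to 1.56. Psmb3 was 0.74 higher in KO ileum, without overlap, and 0.40 in colon. Psmb4 was at 6.64, 5.86 and 6.00 in KO ileum against 5.90, 5.01 and 5.84 in floxed ileum, and at 6.55, 6.14 and 5.59 in KO colon against 6.30, 5.85 and 5.90 in floxed colon. Its difference was 0.58 in ileum and 0.08 in colon, with overlap in both.

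Psmb2 was at 5.72, 5.50 and 5.40 in KO colon against 4.76, 4.57 and 4.58 in floxed colon. In ileum it was at 6.04, 5.02 and 5.42 in KO against 5.05, 4.77 and 5.02 in floxed mucosa. The colon groups lay well apart, while in ileum KO 2 and the floxed arrays met. As a description, its colon difference was 0.90 (95% interval 0.44 to 1.37), or 1.87-fold, and its limma adjusted p over all genes was 0.844. In the ileum arrays, which did not serve to pick it, the difference was 0.54, and 0.27 without ileum KO 1. The 95% interval of that ileum difference, 0.08 to 1.01 (limma adjusted p = 0.711), uses a spread shared with the colon arrays. That interval is thus not free of the choice. Psmb2 had an SD of 0.52 in KO and 0.15 in floxed ileum, against 0.16 in KO and 0.11 in floxed colon. Its colon value ran from 0.81 to 0.97 with each array left out, and was 0.64 with array background as a covariate. The colon arrays served to pick Psmb2, so these values describe its colon difference and lend it no support. With the mean in place of the median of its 16 rows the colon difference was 0.47. By row, 12 of 16 colon differences were positive, from -0.46 to 1.87, and 2 had an unadjusted p under 0.05. In ileum 11 of 16 were positive, from -0.45 to 1.90, and 5 had an unadjusted p under 0.05, with 0 rows called in either tissue.

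The catalytic beta subunits of the constitutive core had positive differences in 3 of 3 in both tissues, with medians of 0.42 in ileum and 0.46 in colon. Psmb5, the chymotrypsin-like subunit, was at 5.59, 5.19 and 4.89 in KO ileum against 4.61, 4.54 and 5.23 in floxed ileum, and at 6.32, 5.31 and 5.09 in KO colon against 5.42, 4.94 and 5.001 in floxed colon. It differed by 0.43 in ileum (95% interval -0.23 to 1.09) and 0.46 in colon (95% interval -0.20 to 1.11), and 1 floxed array of each tissue lay among the KO arrays. Psmb6, the caspase-like subunit, was at 5.83, 5.63 and 5.50 in KO ileum against 5.74, 5.12 and 6.01 in floxed ileum. In colon it was at 6.31, 5.87 and 5.55 in KO against 5.73, 5.20 and 5.34 in floxed mucosa. Its difference was 0.03 in ileum (95% interval -0.50 to 0.56) and 0.48 in colon (95% interval -0.05 to 1.01). The difference between the tissues was -0.46 (95% interval -1.21 to 0.29), and did not pass (limma adjusted p = 1.00). Psmb7, the trypsin-like subunit, was at 6.61, 5.52 and 5.24 in KO ileum against 5.49, 5.02 and 5.60 in floxed ileum, and at 6.16, 5.52 and 5.15 in KO colon against 5.66, 5.34 and 4.98 in floxed colon. It differed by 0.42 and 0.28 in these tissues, and both became 0.01 without the KO array numbered 1.

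The immunoproteasome subunits also had 3 of 3 positive differences in each tissue, with smaller medians of 0.24 in ileum and 0.19 in colon. Psmb8 was at 4.70, 4.80 and 4.17 in KO ileum against 4.15, 4.94 and 4.55 in floxed ileum, and at 4.90, 4.30 and 4.71 in KO colon against 4.84, 4.87 and 4.08 in floxed colon. It differed by 0.01 in ileum (95% interval -0.57 to 0.59) and 0.05 in colon (95% interval -0.53 to 0.62), with full overlap of the groups. Psmb9 was at 5.28, 5.76 and 4.99 in KO ileum against 4.85, 5.03 and 4.96 in floxed ileum, and at 5.10, 4.83 and 5.34 in KO colon against 4.78, 4.42 and 5.21 in floxed colon. Its ileum difference of 0.39 (95% interval -0.10 to 0.89) rested on ileum KO 2 more than on ileum KO 1, and became 0.05 with exon region rows only. Its colon difference was 0.29 (95% interval -0.21 to 0.78). Psmb10 was at 6.28, 5.91 and 5.90 in KO ileum against 5.93, 5.72 and 5.74 in floxed ileum, and at 6.45, 5.75 and 5.45 in KO colon against 5.71, 5.73 and 5.63 in floxed colon. It differed by 0.24 in ileum (95% interval -0.23 to 0.70) and 0.19 in colon (95% interval -0.27 to 0.66), with 1 high KO array in each tissue. Without the 3 immunoproteasome genes the subunit medians were 0.42 in ileum, with 35 of 36 positive, and 0.28 in colon, with 33 of 36 positive. Psmb11, the catalytic subunit of the thymus, was at 2.91, 3.60 and 3.33 in KO ileum against 3.09, 3.31 and 3.40 in floxed ileum. In colon it was at 3.34, 3.14 and 3.33 in KO against 3.00, 3.37 and 3.25 in floxed mucosa. Its 2 rows were dim and differed by 0.01 in ileum and 0.07 in colon.

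Each immunoproteasome subunit was then set against the constitutive subunit that it replaces, as a difference within an array whose change between groups can be read. Averaged over the 3 pairs, this quantity relative to its mean over the 12 arrays was -0.30, 0.34 and 0.10 in KO ileum against -0.01, 0.63 and -0.24 in floxed ileum. It was -0.49, -0.32 and 0.20 in KO colon against -0.20, 0.14 and 0.16 in floxed colon. The KO minus floxed change was -0.08 in ileum and -0.23 in colon. Both were smaller than the pooled SD of 0.34 between single arrays of a group, which is no test of a difference of means, and none was run. Psmb8 minus Psmb5 changed by -0.42 in ileum and -0.41 in colon, Psmb9 minus Psmb6 by 0.37 and -0.20, and Psmb10 minus Psmb7 by -0.18 and -0.09. Of the 3 pairs, 2 thus had a negative change in both tissues and 1 had opposite signs. With exon region rows only the ileum change over the 3 pairs was -0.43.

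**Figure D4:**
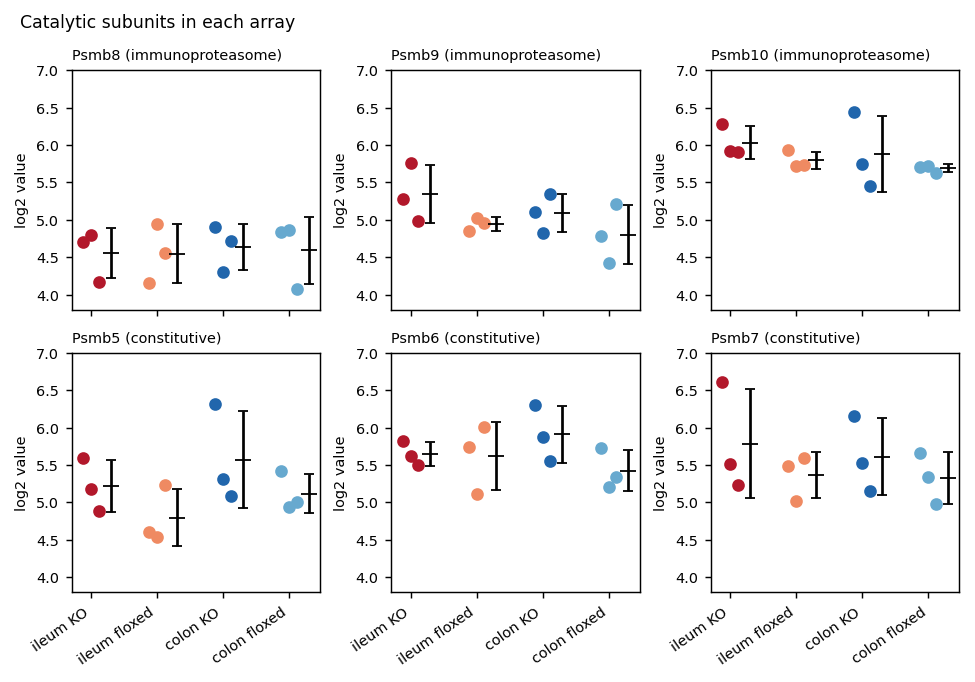
Log2 value of each catalytic subunit in the 12 arrays (points) by group, with the mean and SD of the 3 arrays beside them. The top row holds the immunoproteasome subunits Psmb8, Psmb9 and Psmb10 above the constitutive subunits Psmb5, Psmb6 and Psmb7 that they replace. KO and floxed points overlap in all panels, and levels of different subunits are not comparable.

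The ATPases of the base, Psmc1 to Psmc6, had positive differences in 6 of 6 in both tissues, with medians of 0.36 in ileum and 0.32 in colon. Psmc6 was at 5.23, 3.24 and 4.12 in KO ileum against 3.65, 2.92 and 3.50 in floxed ileum, and at 4.06, 3.46 and 3.02 in KO colon against 3.52, 3.13 and 2.86 in floxed colon. Its difference was 0.84 in ileum (95% interval -0.06 to 1.74) and 0.35 in colon, with an SD of 1.00 among the KO ileum arrays. The other 5 lay between 0.32 and 0.62 in ileum and between 0.03 and 0.41 in colon. The scaffold subunits Psmd1 and Psmd2 and the ubiquitin receptor Psmd4 had medians of 0.48 in ileum and 0.26 in colon, with 3 of 3 positive in each. Psmd1 was at 5.39, 4.13 and 4.54 in KO ileum against 3.88, 3.84 and 4.22 in floxed ileum. In colon it was at 4.18, 3.98 and 3.89 in KO against 4.19, 3.78 and 3.82 in floxed mucosa. The ileum difference was 0.71 (95% interval 0.14 to 1.27, limma adjusted p = 0.711) with slight overlap, and the colon difference was 0.09.

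All 8 lid subunits had positive differences in both tissues, with medians of 0.35 in ileum and 0.23 in colon. Psmd6 was at 5.27, 4.18 and 4.29 in KO ileum against 4.01, 2.73 and 3.67 in floxed ileum, and at 4.33, 3.86 and 3.77 in KO colon against 4.36, 3.74 and 3.33 in floxed colon. The ileum groups did not overlap (1.11, 95% interval 0.32 to 1.90, limma adjusted p = 0.711), while the colon groups did (0.18, 95% interval -0.61 to 0.97). Its ileum minus colon difference of differences was 0.93 (95% interval -0.19 to 2.05), the largest of the 39, and did not pass (limma adjusted p = 1.00). Psmd14, the deubiquitinase that removes ubiquitin chains, differed by 0.43 in ileum and 0.22 in colon, at values under the control cutoff on most arrays. Psmd3, Psmd7, Psmd8, Psmd11, Psmd12 and Psmd13 lay between 0.26 and 0.44 in ileum and between 0.16 and 0.37 in colon.

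Of the base assembly chaperones, which leave before the particle is finished, 3 of 3 were positive in ileum (median 0.35) and 2 of 3 in colon (median 0.26). Psmd5 was at 4.13, 2.86 and 2.46 in KO ileum against 2.82, 2.87 and 2.71 in floxed ileum, and at 4.10, 3.61 and 3.10 in KO colon against 3.15, 2.71 and 3.02 in floxed colon. Only ileum KO 1 was high in ileum (0.35), whereas 2 KO colon arrays stood above all floxed ones (0.64, 95% interval -0.12 to 1.41). The colon difference of Psmd5 was 0.07 with exon region rows only. Psmd9 was at 5.08, 5.41 and 5.01 in KO ileum against 4.69, 5.39 and 5.21 in floxed ileum, and at 5.37, 5.26 and 5.44 in KO colon against 5.32, 5.36 and 5.56 in floxed colon. It differed by 0.07 in ileum and -0.06 in colon, and ileum KO 1 was not its highest array. Psmd10 differed by 0.60 in ileum without overlap and by 0.26 in colon.

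Between the regions, no subunit passed the test in either genotype. In KO mice 31 of 39 ileum minus colon differences were positive (median 0.18), and in floxed mice 26 of 39 (median 0.06). Over all genes both medians were -0.01. Called were 0 of 39 subunits in each, against 0.79% of all genes in KO mice and 0.588% in floxed mice. Those were 150 higher and 97 lower genes in ileum of KO mice, and 124 higher and 60 lower in ileum of floxed mice. At an unadjusted p under 0.05 stood 1 subunit in KO mice (Psmd1), against 7.36% of all genes, and 0 in floxed mice, against 6.27%. The KO regional comparison uses the same arrays as the KO minus floxed comparisons, so their values are not independent. Without ileum KO 1 the KO median was -0.07 with 16 of 39 positive, and without both KO arrays numbered 1 it was 0.11 with 30 of 39 positive.

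Psmd1 had the smallest p among the subunits in the regional comparison of KO mice (0.67, 95% interval 0.10 to 1.23, limma adjusted p = 0.528), and Psmc6 the largest difference (0.68, 95% interval -0.22 to 1.58). Psmd6 followed at 0.59. The lowest were Psmd5 (-0.45), Psmb5 (-0.35) and Psmb6 (-0.26), all with overlap. In floxed mice the highest were Psma3 (0.39), Psmb2 (0.31) and Psma8 (0.30), and the lowest Psmb1 (-0.47), Psmb4 (-0.43) and Psmd6 (-0.34). Psmb2 and Psmd14 were higher in every floxed ileum than in every floxed colon array, by 0.31 and 0.22 (limma adjusted p = 0.937 and 0.981). The same held for 1601 of all 31276 genes, so these 2 of 39 subunits are not read as a result. Psmd14 is dim, and Psmb2 was singled out for colon values that include these floxed arrays. The immunoproteasome subunits differed between ileum and colon by 0.25 (Psmb9), 0.15 (Psmb10) and -0.08 (Psmb8) in KO mice and by 0.14, 0.11 and -0.05 in floxed mice. Set against their constitutive partners, the change over the 3 pairs was 0.25 in KO and 0.10 in floxed mice. Both were smaller than the pooled SD of 0.34 between single arrays, again without a test. On the same arrays Vil1, which shapes the brush border, was higher in ileum by 1.42 in KO and 1.46 in floxed mice (limma adjusted p = 0.0455 and 0.048). It was the only 1 of the 7 epithelial markers called, and 5 of 7 were positive in each genotype. Krt18 (-0.35 in KO and -0.34 in floxed mice) and Krt19 (-0.24 and -0.22) went the other way.

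The KO minus floxed difference in ileum minus that in colon was positive for 28 of 39 subunits (median 0.12). Called were 0 subunits, against 0% of all genes, and 0 had an unadjusted p under 0.05, against 2.48% of all genes. Its median was -0.11 without ileum KO 1, 0.33 without colon KO 1 and 0.12 without both, so its sign depends on which array is left out.

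**Figure D5:**
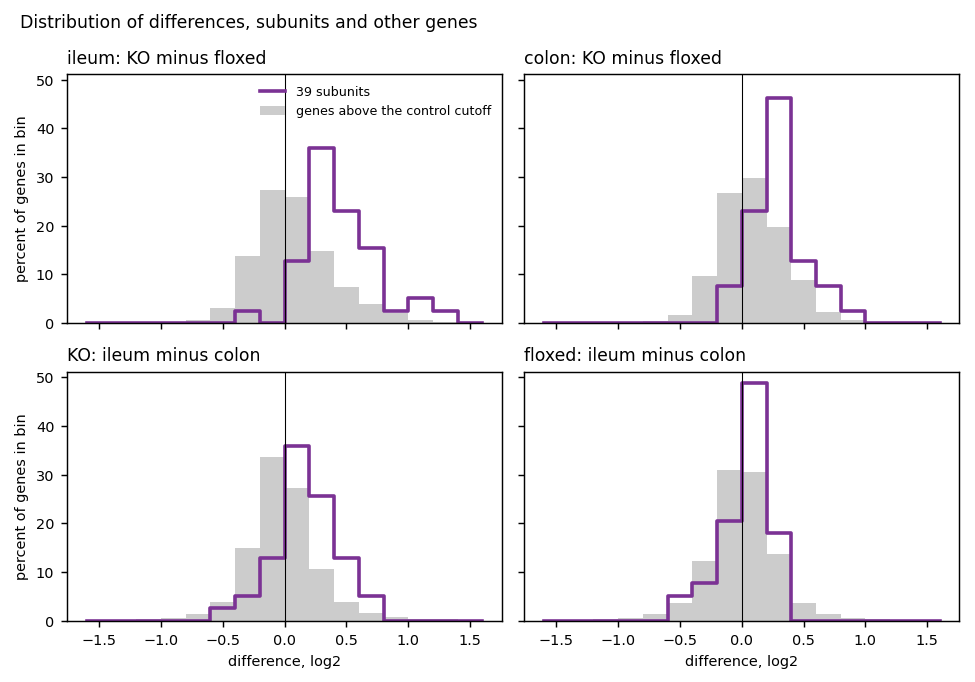
Distribution of log2 differences for the 39 subunits (line) and the 16671 genes above the control cutoff (grey), as a percent of genes in bins of 0.2, for the KO minus floxed comparisons (top) and the ileum minus colon comparisons (bottom). The subunit line lies to the right of the grey bars in both top panels (medians 0.39 and 0.27 against 0.03 and 0.07).

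Most subunit rows were positive, as were most gene values, which are medians of these same rows, so the rows give no separate support. The share of all rows with a positive difference was not computed. Of the 994 subunit rows, 701 (70.5%) had a positive KO minus floxed difference in ileum and 707 (71.1%) in colon, with medians of 0.28 and 0.20. Exon regions were positive in 434 of 598 in ileum and 420 of 598 in colon, and junctions in 267 and 287 of 396. Of the 692 rows above the control cutoff 72.5% were positive in ileum and 75.6% in colon, and of the 302 at or below it 65.9% and 60.9%. In ileum 7 of 17 rows of Psmb8, 12 of 26 of Psmb9 and 10 of 16 of Psmb10 were positive, against 11 of 12 of Psmb1 and 15 of 17 of Psma2. In colon these counts were 10, 18 and 14 for the immunoproteasome genes, against 12 and 15. Most ileum rows of Psmb8 and Psmb9, and of Psmd9 (6 of 16 positive), thus went against their positive gene differences. Tested row by row over 719071 rows, 0 subunit rows were called in any comparison. The share of all rows called was 0% in ileum and 0% in colon for KO minus floxed, and 0.381% in KO and 0.285% in floxed mice for ileum minus colon.

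Genes that work with the proteasome were looked up in lists by role, and none passed a KO minus floxed or a regional test. Of the activators and the inhibitor of the core, 4 of 5 were measured, and 3 of 4 differences were positive in ileum (Psme3 at 0.40) and 4 of 4 in colon (Psme4 at 0.26). The core assembly chaperones had 2 of 5 positive in ileum and 3 of 5 in colon (medians -0.01 and 0.11). Pomp, the maturation protein of the core, was the largest, at 6.33, 5.86 and 5.75 in KO colon against 5.45, 5.02 and 5.23 in floxed colon, without overlap (0.75, limma adjusted p = 0.844), and at 0.38 in ileum. Further regulatory particle subunits and deubiquitinases had 4 of 4 positive in ileum and 3 of 4 in colon, with Sem1, a small lid protein, at 0.75 and 0.36.

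The NRF1 list, which holds Nfe2l1, its activators Ddi2 and Ngly1, and the related factor Nfe2l2, had 4 of 4 positive in both tissues (medians 0.19 and 0.24). Nfe2l1 itself was at 0.09 in each. Nfe2l2 was at 5.84, 5.46 and 5.62 in KO ileum against 5.07, 4.62 and 5.02 in floxed ileum, without overlap (0.74, limma adjusted p = 0.711), and Ddi2 was the largest of the list in colon (0.46, also without overlap). Between the regions all 4 were lower in ileum than in colon in KO mice (median -0.24) and 3 of 4 in floxed mice (median -0.31), with Nfe2l2 at -0.47 and -0.82. The ubiquitin list had 3 of 8 genes measured, all positive in both tissues, with Nploc4 at 0.54 in ileum and Vcp at 0.41 in colon.

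MHC class I loading genes, which use the peptides that the proteasome makes, had 8 of 9 positive in both tissues (medians 0.35 and 0.36). B2m, the light chain of MHC class I, was at 10.56, 8.93 and 8.92 in KO ileum against 8.22, 7.01 and 8.94 in floxed ileum, a difference of 1.41 (95% interval 0.07 to 2.75, limma adjusted p = 0.711) with overlap. In colon it was at 9.97, 8.33 and 7.54 in KO against 8.16, 7.42 and 7.94 in floxed mucosa, a difference of 0.78. Tap1 and Tap2, the peptide transporters encoded beside Psmb9 and Psmb8, were at 0.07 and -0.04 in ileum and at 0.32 and -0.02 in colon. Of the interferon gamma list 7 of 8 were measured and 5 of 7 were positive in each tissue, with Ifngr2 at 0.66 in ileum and Irf1 at 0.44 in colon.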

How the data were processed

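The deposited table held log2 intensity values of 725678 rows on 12 arrays, made by the authors with RMA and Partek per the submitters' processing notes; versions and order are not given in the sources used here. RNA was labelled with biotin after the WT Pico kit, per the labels' protocols. Of the rows, 580167 carried 1 gene symbol in the platform annotation, and 18694 with several symbols were left out. Gene values were medians of rows per array, with 1584 symbols updated through RefSeq. No further normalization was applied. limma 3.58.1 in R 4.3.3 fitted 1 mean per group over all 12 arrays, two-sided, with Benjamini-Hochberg adjustment over 31276 genes and calls at 0.05. The 3 arrays per group limit the precision.

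The subunits and all lists were chosen with earlier results of these data known. Values in every array are given for Psmb2, Psmb5 to Psmb10 and the 3 subunits with the largest positive and negative difference of each 2-group comparison, and for Psmb11, Psmd1, Pomp, Nfe2l2 and B2m by the same rule or as the largest of their list. Replicate numbers are shared by the groups, but no label pairs them. Alternatives were the mean of rows, exon regions only, dim genes left out, quantile normalization, array background as a covariate, array weights, a replicate block and leaving out single arrays. The fit was tested on simulated data.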

Additional observations from a re-analysis of the deposited data

How the results depend on the processing

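No subunit was called under any alternative that was run, although unadjusted counts moved. With dim genes left out 32 of the 39 subunits were fitted, and each array was left out only for the comparisons that use it. The array background covariate moved the subunit median most, to -0.229 in KO minus floxed ileum, -0.057 in KO minus floxed colon and -0.145 in ileum minus colon of KO mice. With exon region rows only, the immunoproteasome minus constitutive change in KO ileum was -0.433. The cause of these moves was not tested. Leaving out 1 array at a time, the subunit median ran from 0.172 to 0.572 in KO minus floxed ileum and from 0.078 to 0.397 in KO minus floxed colon. It ran from -0.072 to 0.384 in ileum minus colon of KO mice, from -0.017 to 0.193 in that of floxed mice, and from -0.111 to 0.327 for the difference between tissues. The immunoproteasome minus constitutive change ran from -0.261 to 0.173 in KO minus floxed ileum and from -0.432 to -0.091 in KO minus floxed colon. For ileum minus colon it ran from 0.106 to 0.451 in KO mice and from -0.155 to 0.279 in floxed mice. Same-numbered arrays did not deviate together throughout, with correlations across genes of 0.331, 0.381 and -0.175 between KO and floxed ileum and 0.312, 0.0706 and 0.256 between KO and floxed colon. They were 0.531, -0.0474 and 0.22 between ileum and colon of KO mice and 0.262, 0.104 and -0.128 in floxed mice, and all pairs of arrays numbered 1 were positive, from 0.21 to 0.531. Pairs with different numbers ran from -0.512 to 0.429, a range that holds all of these values but 0.531. A replicate block left the medians at 0.395 and 0.274 and called 0 subunits, while 17 subunits in ileum and 6 in colon had an unadjusted p under 0.05. The share of all genes under 0.05 with that block was not computed, so these counts cannot be read as particular to the subunits. Over all genes, ileum minus colon called 247 genes in KO mice and 184 in floxed mice, and 415 and 334 with the background covariate. Without 1 array these counts fell as low as 135 in KO mice and 93 in floxed mice, where fewer arrays were fitted. Leaving out both KO arrays numbered 1, an alternative chosen after seeing the data, called 144 genes in KO mice. Of single subunit values, 26 moved by more than 1 SD between arrays and 588 did not. There were 3 arrays a group, and 7 subunits were in the range of the negative controls.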
